A study of Mus musculus with 7 samples.

Results

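Excitatory nuclei of mouse visual cortex (V1) that held many viral transcripts were compared with excitatory nuclei in which no viral transcript was captured. A nucleus entered when it had more than 200 unique molecular identifiers (UMIs) outside the viral barcode columns, at least 1 UMI of Slc17a7, the vesicular glutamate transporter of cortical excitatory neurons, and 0 UMIs of Gad1 and Gad2, the enzymes that make GABA. This left 5729 excitatory nuclei of 32335 nuclei kept and 47348 cell barcodes deposited. The groups were chosen by the count of viral UMIs: 908 held 30 or more (high nuclei) and 651 held 0, together 1559 nuclei. The nuclei belong to 1 snRNA-Seq sample, deposited as 10 libraries, from C57BL/6J mice labelled male and 6 to 10 weeks of age, injected in V1 with an AAV9 library in which each vector carries a candidate gene regulatory element (GRE) in front of a transcribed barcode. The library names form 2 sets of 5, and the study's methods describe 5 libraries from each of 2 animals, without saying which set is which animal. High nuclei and nuclei with 0 viral UMIs came from the same injected tissue, so both groups share the surgery and the virus, and neither is an uninjected control. The libraries are technical units, and every p-value below measures the spread between libraries only.

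Adeno-associated virus enters neurons through surface glycans and a protein receptor, travels to the nucleus, and there persists as episomal DNA from which the vector's promoter is transcribed. The number of viral transcripts counted in a nucleus is known to depend on how many genomes arrived, on how strongly the vector's elements are used in that cell type, and on how deeply the nucleus was sampled. Cortical excitatory neurons fall into layer classes that differ in their transcription factors and in the targets of their axons.

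The viral UMIs of the high nuclei came from nearly the whole library. Of 287 GREs, 286 had a UMI in a high nucleus, and a high nucleus held a median of 17 GREs (quartiles 12 and 24). The leading GRE gave a median of 25% of a nucleus's GRE UMIs, and in 108 high nuclei it gave over 50%. The 10 most abundant GREs made up 22.3% of GRE UMIs in high nuclei and 22.5% in excitatory nuclei with 1 to 29 viral UMIs. The most abundant was GRE126, an intergenic element of 553 bp at chr16:24053278-24053830, with 2324 UMIs in 422 high nuclei, a share of 3.33% against 3.29% in nuclei with 1 to 29. The third, GRE200, lies in an intron of Spon1 at chr7:113885444-113885743, with 1850 UMIs in 385 high nuclei, a share of 2.65% against 2.44%. Among the 10 most abundant the shares were furthest apart for GRE122, in an intron of Bnc2, at 2.54% in high nuclei against 3.49%. The high class was thus spread over many vectors rather than held by a few, and the first 300 bases of these intergenic and intronic elements are given, forward strand of GRCm38 (RefSeq), as the intergenic and the intronic element with the most UMIs in these nuclei:
GRE126: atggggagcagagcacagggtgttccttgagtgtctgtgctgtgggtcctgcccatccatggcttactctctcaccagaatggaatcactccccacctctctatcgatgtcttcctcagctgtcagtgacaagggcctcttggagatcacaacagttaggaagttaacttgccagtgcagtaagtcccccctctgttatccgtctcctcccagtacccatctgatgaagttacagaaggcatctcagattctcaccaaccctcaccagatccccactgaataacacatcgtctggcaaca
GRE200: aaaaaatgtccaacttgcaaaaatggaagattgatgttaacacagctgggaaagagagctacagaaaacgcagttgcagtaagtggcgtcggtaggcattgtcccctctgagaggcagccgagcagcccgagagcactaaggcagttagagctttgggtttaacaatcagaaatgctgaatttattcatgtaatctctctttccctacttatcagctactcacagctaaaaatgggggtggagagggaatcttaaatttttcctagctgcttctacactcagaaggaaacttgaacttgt

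The viral counts chose the groups and are given as a description. High nuclei held a median of 55 viral UMIs (quartiles 39 and 86, highest 1135). They made up 15.8% of excitatory nuclei and held 67.8% of their viral UMIs. Across libraries the share of high nuclei ran from 4.37% to 19.6% with a median of 16.2%, and the share with 0 from 4.62% to 25.8% with a median of 9.85%. Library 5 of set 2 stood apart at both ends, with 21 high nuclei and 124 with 0. Just inside the threshold, the 132 nuclei with 30 to 34 viral UMIs had a median of 1302 cellular UMIs and 12 viral barcodes, and just outside it the 184 nuclei with 25 to 29 had 1186 and 11. At the other end, the 529 nuclei with 2 viral UMIs had a median of 877 cellular UMIs, the 626 with 1 had 897 and the 651 with 0 had 783.

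**Figure D1:**
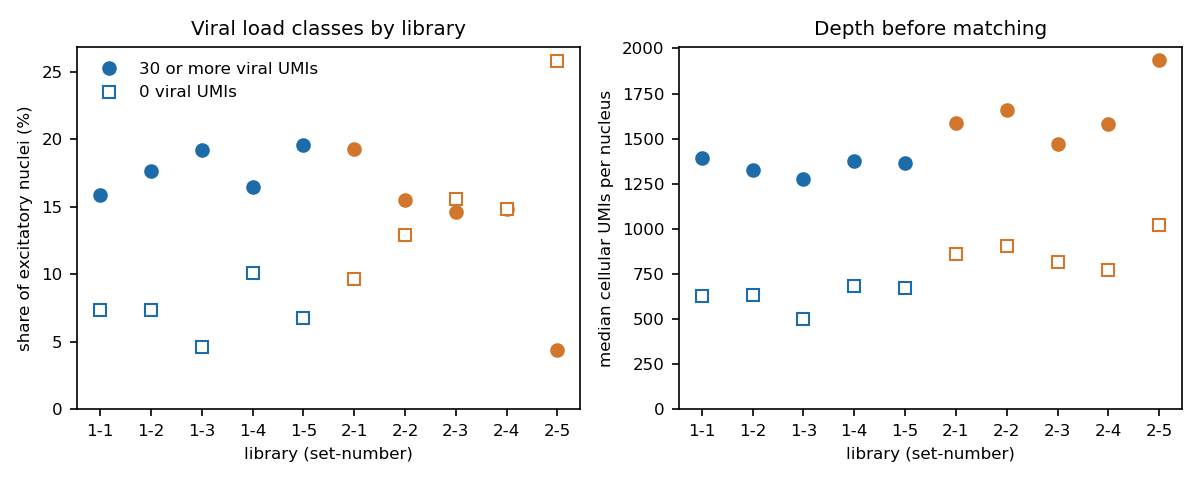
Left, the share of excitatory nuclei (%) with 30 or more viral UMIs (filled circles) and with 0 (open squares) in each of the 10 libraries, set 1 in blue and set 2 in orange. Right, the median cellular UMIs per nucleus of the same groups; in each library the high nuclei sit above the nuclei with 0, and library 2-5 holds 4.37% high nuclei and 25.8% with 0.

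Several facts of the libraries bear on all results. Summed over excitatory nuclei, a library held 542441 to 841077 cellular UMIs. The deposited barcodes are 34958 distinct sequences, and 475 of the 5729 excitatory nuclei share theirs with an excitatory nucleus of another library. Although the mice are labelled male, Xist, the RNA of the inactive X chromosome, had a UMI in 71.1% to 79.6% of kept nuclei per library, with 42 to 60 UMIs of 4 Y-linked genes per library. The excitatory label fits its markers. The 10 pan-excitatory genes not used to choose the nuclei summed to 63.9 UMIs per 10000 in excitatory nuclei and 34.8 in inhibitory nuclei, and the 13 inhibitory markers to 4.01 and 74.7.

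More cellular UMIs were captured in high nuclei, which is a description, since choosing nuclei by a count of viral UMIs also favours deeply sampled ones. The mean per nucleus ran from 1327 to 2484 cellular UMIs over libraries (median 1565) in high nuclei and from 651 to 1126 (median 867) in nuclei with 0, so the groups did not overlap. The means were 1676 ± 331 and 863 ± 131 (SD, n = 10 libraries), with the high nuclei above in 10 of 10. Each high nucleus was therefore paired, within its library, with a nucleus with 0 viral UMIs of nearly the same depth. The 345 pairs had median depths of 1071 and 1059 cellular UMIs, and their high nuclei held a median of 51 viral UMIs. Matching thus kept 345 of 908 high nuclei, with a lower median depth than all high nuclei (1430).

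Genes per nucleus and the mitochondrial share were compared in these pairs, whose high nuclei still held 401642 cellular UMIs in total against 397907, more in 7 of 10 libraries. The part of this gap in the difference in genes was not tested. The mean over libraries was 811 ± 152 genes in high nuclei and 801 ± 163 in nuclei with 0, a difference of 9.41 with the high nuclei above in 9 of 10 libraries (exact permutation test, p = 0.0801, adjusted p = 0.120 over 3 measures), which did not pass. The third measure was the mean cellular UMIs of all nuclei before matching, a description whose small p lowers this adjusted p. Without library 5 of set 2 the difference was 13.7 (exact permutation p = 0.00391, unadjusted), and with a high class from 20 viral UMIs it was 6.64 (exact p = 0.0195, unadjusted). The share of UMIs from mitochondrially encoded genes was 0.0881% ± 0.0289 and 0.127% ± 0.102, which did not pass (exact permutation test, adjusted p = 0.342). The medians over libraries were 0.0818% and 0.0861%, high nuclei were above in 6 of 10 libraries, and without library 3 of set 1 the mean difference moved from -0.0386 to -0.0119 percentage points. Slc17a7 itself, which chose the nuclei, had 514 UMIs in the high nuclei of the pairs and 499 in their partners.

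In the depth-matched pairs 3 genes of 644 tested passed an adjusted p of 0.05, Foxp1 lower and Atp2b4 and Lin54 higher in high nuclei (edgeR quasi-likelihood test with library as block, Benjamini-Hochberg). The share called was 0.311% higher and 0.155% lower, and over all 644 genes the median log2 fold change was 0.000475 with 50.3% positive, as the scaling of the sums to each other tends to give. At an unadjusted p under 0.05, 30 genes were higher and 29 lower.

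Foxp1, a forkhead transcription factor of projection neurons of the middle and deeper cortical layers, fell. Its level, in UMIs per 10000 cellular UMIs, ran from 0.797 to 4.71 over libraries (median 1.96) in high nuclei and from 2.39 to 6.88 (median 5.30) in nuclei with 0. The ranges overlap, but within a library the high nuclei were lower in 9 of 10, by a log2 fold change of -1.07 (SE 0.22, adjusted p = 0.0019, edgeR). The difference was of like size in set 1 (-1.08) and set 2 (-1.09). It appeared as fewer nuclei with any Foxp1 UMI, 71 of 345 (20.6%) against 121 of 345 (35.1%). Without library 5 of set 2 the log2 fold change was -1.03 (adjusted p = 0.015, edgeR). It missed the threshold when nuclei were thinned to 400 UMIs (-0.76, adjusted p = 0.168), when the high class began at 20 viral UMIs (-0.77, adjusted p = 0.138) and in set 2 alone (-1.10, adjusted p = 0.0991). The Foxp1 gene spans chr6:98925338-99522721 on the minus strand of GRCm38 and overlaps the annotated gene Gm20696 on that strand.

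Atp2b4, a calcium pump of the plasma membrane, rose. Its level ran from 2.57 to 9.70 UMIs per 10000 (median 6.56) in high nuclei and from 1.87 to 6.69 (median 3.66) in nuclei with 0. It was higher in 9 of 10 libraries, by a log2 fold change of 0.77 (SE 0.19, adjusted p = 0.0189). Lin54, a DNA-binding subunit of the DREAM complex that holds cell-cycle genes silent in resting cells, ran from 8.77 to 21.7 (median 14.2) against 5.18 to 16.0 (median 9.27), with a log2 fold change of 0.58 (SE 0.14, adjusted p = 0.0189) and a higher level in 9 of 10 libraries. Both kept their direction but not their call when library 5 of set 2 was left out, Atp2b4 at 0.79 and Lin54 at 0.60 (both adjusted p = 0.067, edgeR). In pairs that also shared a layer label, defined below, Atp2b4 was at 0.54 (adjusted p = 0.382) and Lin54 at 0.42 (adjusted p = 0.310, edgeR). Thinned to 400 UMIs per nucleus, Atp2b4 was at 0.74 (adjusted p = 0.137) and Lin54 at 0.51 (adjusted p = 0.0801, edgeR). Over the alternatives that tested them, Atp2b4 passed in 10 of 25 and Lin54 in 9 of 27, against 20 of 23 for Foxp1. These counts cover unlike sets of alternatives, of which there were 28. Foxp1 was not tested in the pairs that also shared a layer label, where the other 2 genes did not pass.

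**Figure D2:**
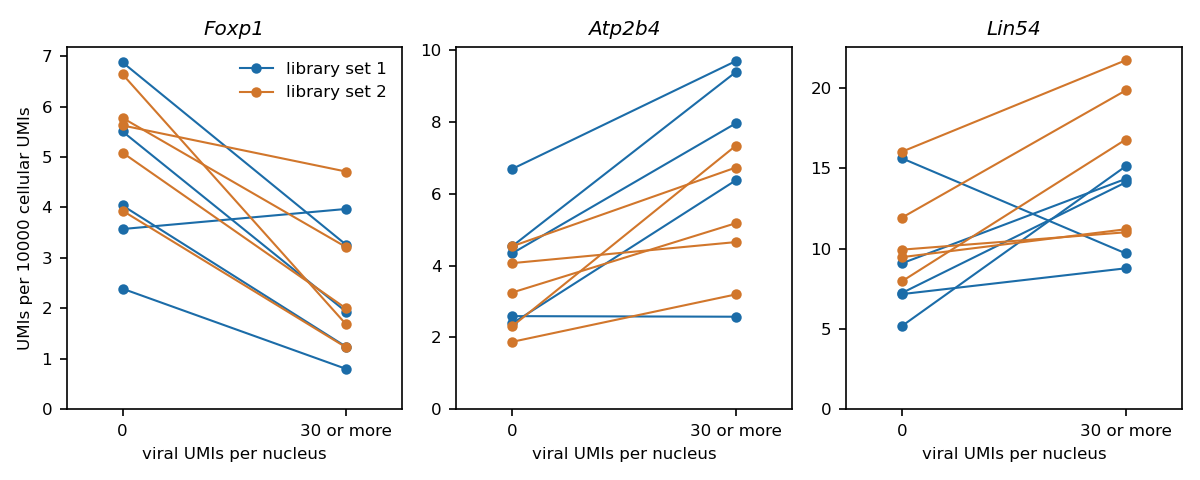
Levels of Foxp1, Atp2b4 and Lin54 (UMIs per 10000 cellular UMIs) in the depth-matched nuclei with 0 and with 30 or more viral UMIs, 1 line per library, set 1 in blue and set 2 in orange. Foxp1 falls along 9 of 10 lines, and Atp2b4 and Lin54 each rise along 9 of 10.

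The next genes by p did not pass and are given as values. Gria3, an AMPA receptor subunit, had a log2 fold change of 0.60, Wdr18, a protein of ribosome assembly, 0.50, and Nkain3, a protein that binds the sodium pump, 0.35 (each adjusted p = 0.10). On the other side stood Gpr158, an orphan receptor of cortical neurons, at -0.71, Calm3, a calmodulin gene, at -0.59, and Ctsb, a lysosomal protease, at -0.53 (each adjusted p = 0.10), with Ctsb lower in 10 of 10 libraries. With nuclei thinned to 400 UMIs Gria3 was at 0.94 and passed (adjusted p = 0.00736, edgeR), as it did in 5 of 26 alternatives in all. Olfm1, a secreted synaptic protein, was at -0.31 (adjusted p = 0.184).

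In the comparison with 0, 0.311% of the 644 genes tested passed as higher and 0.155% as lower. At that share short lists would hold few or no calls, and no member of any gene list passed. That covers 5 of 17 immediate early genes that were deep enough to test, 5 of 12 heat shock genes, 3 of 18 genes of the unfolded protein response, 4 of 16 glutamate receptor genes, 7 of 14 presynaptic vesicle genes, 8 of 79 ribosomal protein genes and 1 of 14 genes of the MHC class I pathway, and few lists could be tested in full. Of 27 measured interferon response genes none was deep enough. Their summed level ran from 3.19 to 10.6 UMIs per 10000 (median 6.75) in high nuclei and from 3.28 to 15.1 (median 5.41) in nuclei with 0. The p53 targets, none of which was deep enough to test, summed to 8.16 to 13.8 (median 10.7) against 5.36 to 12.3 (median 9.45). The ranges overlap for both lists, and within libraries the interferon sum was higher in high nuclei in 8 of 10 and the p53 sum in 7 of 10, untested. A change in single genes of these lists was not detectable at this depth.

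More depth came from a second reference, the excitatory nuclei with 1 to 5 viral UMIs. Here 785 high nuclei were paired with 785 of 2140 such nuclei, with median depths of 1339 and 1303 cellular UMIs, and 2930 genes were tested. Of the high nuclei, 334 are in both sets of pairs, so the comparisons are not independent of each other. High nuclei had 15 genes higher (0.512%) and 20 lower (0.683%) at an adjusted p of 0.05 (edgeR). At an unadjusted p under 0.05 the counts were 188 and 177.

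Atp2b4 and Lin54, called as higher against nuclei with 0, were not among the genes that passed here. Foxp1 was again among the genes that fell, with the smallest p of all. Its level ran from 1.54 to 3.67 UMIs per 10000 (median 2.72) in high nuclei and from 3.41 to 6.77 (median 5.34) in nuclei with 1 to 5, lower in 10 of 10 libraries. The log2 fold change was -0.91 (SE 0.14, adjusted p = 9.0e-06), and 25.9% of high nuclei against 40.4% held a Foxp1 UMI. It passed under all 18 alternatives that tested it in this comparison, at -0.80 in the weakest.

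Among the genes that rose were members of the layer 2/3 list. Rasgrf2, a guanine nucleotide exchange factor for Ras that marks layer 2/3, rose by a log2 fold change of 1.14 (SE 0.19, adjusted p = 7.6e-05), from a median of 1.09 to 2.22 UMIs per 10000. Lamp5, a lysosome-associated membrane protein and also a layer 2/3 marker, rose by 0.63 (SE 0.13, adjusted p = 0.0022), and Enpp2, which makes lysophosphatidic acid, by 0.74 (SE 0.19, adjusted p = 0.0259). All 5 testable genes of the layer 2/3 list were positive and 3 of them passed, where 51.6% of all 2930 genes tested were positive and 0.512% passed as higher. This list, like the others here, was chosen with earlier results of these data known, so its counts are a description. Summed over its 11 genes, the list ran from 8.64 to 20.2 UMIs per 10000 (median 14.3) in high nuclei and from 6.21 to 12.3 (median 9.38) in nuclei with 1 to 5, higher in 9 of 10 libraries. The list is not particular to excitatory nuclei, with a mean of 12.2 UMIs per 10000 in them and 12.6 in inhibitory nuclei.

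Fam19a1, a secreted chemokine-like protein of neurons, rose by 1.10 (SE 0.17, adjusted p = 1.4e-05), the smallest p among genes that rose. Its level ran from 2.08 to 4.95 (median 3.72) in high nuclei and from 0.676 to 2.42 (median 1.62) in nuclei with 1 to 5. A UMI of it was found in 192 of 785 high nuclei (24.5%) against 98 of 785 (12.5%). The ranges overlap little, and 9 of 10 libraries were higher. It passed in 17 of 18 alternatives, the exception being set 2 alone (0.70, adjusted p = 0.328, edgeR).

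The remaining genes that rose have varied roles. Ntrk3, a neurotrophin receptor, rose by 0.63 (SE 0.11, adjusted p = 0.00027), with 710 UMIs against 444. Gpr22, an orphan receptor, rose by 0.74, Chuk, a kinase of the NF-kB pathway, by 0.68 and Psd3, an exchange factor for Arf GTPases, by 0.43. Gria3 rose by 0.39 (SE 0.10, adjusted p = 0.0218), with 915 UMIs against 681, and it was the only 1 of 8 tested glutamate receptor genes to pass, where 0.512% of all genes tested passed as higher. Parm1, a mucin-like membrane protein used here as a layer 5 IT marker, rose by 0.94. The last ones were Psmd11, a proteasome subunit (0.40), Mme, the peptidase neprilysin (0.36), Enc1, an actin-binding protein (0.35), Nkain3 (0.25) and H2-Q4, of the MHC class I family (0.26). Mme, Nkain3 and H2-Q4 were higher in 10 of 10 libraries. Some of these calls were fragile: of 18 alternatives, Enc1 passed in 3, Psmd11 in 4, Chuk in 5, Gpr22 in 6 and Enpp2 in 8, against 16 each for Ntrk3, Lamp5, Rasgrf2 and H2-Q4. Many of the alternatives leave out 1 library and so share most of their nuclei. In set 2 alone Psmd11 was at 0.14 (adjusted p = 0.908, edgeR) and Lamp5 at 0.41 (adjusted p = 0.657). Rasgrf2 was at 0.90 and Ntrk3 at 0.54 there (both adjusted p = 0.225), and Parm1 at 1.28 passed (adjusted p = 0.0374, edgeR). H2-Q4 shares sequence with the other H2-Q genes, and how the authors' counting split such reads was not tested.

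The genes that fell included general neuronal and mitochondrial transcripts. Syt1 and Snap25, which drive vesicle fusion, fell by 0.23 each on the log2 scale, and Olfm1 and Rtn1, a reticulon of the endoplasmic reticulum, by 0.27 and 0.25, all lower in 10 of 10 libraries. Snap25 passed in 9 of 18 alternatives and lost its call without any 1 of 5 libraries (adjusted p = 0.0542 without library 5 of set 2, edgeR), and Syt1 was at -0.14 (adjusted p = 0.424) in pairs that also shared a layer label. Of 12 tested presynaptic vesicle genes, 2 passed as lower, against 0.683% of all genes tested, the median was -0.19, and the list's summed level ran from 81.6 to 94.5 UMIs per 10000 in high nuclei and from 94.3 to 110 in nuclei with 1 to 5. The 2 mitochondrially encoded genes that fell were mt-Nd4, of respiratory complex I, by 1.04 (150 to 74 UMIs) and mt-Co1, of cytochrome oxidase, by 0.60 (350 to 224), of 5 tested. The mean mitochondrial share was 0.0735% against 0.120%, lower in 7 of 10 libraries (exact permutation test, adjusted p = 0.0215). Its medians over libraries were closer, at 7.81 against 8.30 UMIs per 10000, with a highest library of 10.3 against 22.8. For mt-Co1 the medians were 2.08 against 2.46, lower in 7 libraries, and for mt-Nd4 0.588 against 1.16, lower in 9. Genes per nucleus were 978 against 959, higher in 9 of 10 (adjusted p = 0.00781, exact test). The pairs were not quite equal in depth, with 1097381 cellular UMIs in high nuclei and 1074322 in their partners, more in 9 of 10 libraries. The part of these measures in the gene differences was not tested.

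Further genes that fell carry more specific roles. Gfra2, a co-receptor for neurturin, fell by 0.93 (SE 0.23, adjusted p = 0.016), Slc24a3 by 0.92 and Slc24a2 by 0.41, both exchangers of sodium for calcium and potassium. The potassium channels Kcnh1 and Kcnq3 fell by 0.63 and 0.57, Kcnq3 being the only 1 of 16 tested channel genes on the list to pass, where 0.683% of all genes tested passed as lower. Neurod6, a transcription factor of cortical excitatory neurons, fell by 0.73 (SE 0.19, adjusted p = 0.0259), and it was the only 1 of 10 tested pan-excitatory genes to do so, to be read against the same share. That list had a median of -0.28 and a summed level of 55.4 to 60.9 UMIs per 10000 against 60.2 to 72.2, lower in 10 of 10 libraries. Deptor, an inhibitor of mTOR and a layer 5 IT marker, fell by 0.91. The remainder were Nmt1, which attaches myristate to proteins (-0.79), Ptprt, a receptor phosphatase (-0.69), Hpca, a calcium sensor (-0.57), Dkk3, a secreted glycoprotein (-0.51), Nrn1, a neurite-promoting surface protein (-0.48), and Snrpn, an imprinted splicing protein (-0.35). Among the genes that fell, Slc24a2 passed in 17 of 18 alternatives, with -0.21 (adjusted p = 0.775, edgeR) in set 2 alone, whereas Nmt1 passed in 4 of 17, Deptor in 6 of 15, and Neurod6 in 6, mt-Co1 in 7 and Snrpn in 8 of 18. Of all genes that passed in this comparison, only Ptprt holds a GRE of the library within its span. Fam19a1, Gpr22, Hpca, Kcnh1, Nmt1 and Nrn1 overlap another protein-coding gene on the opposite strand, Snrpn overlaps Snurf, and whether the counting used strand is not given in the sources used here.

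**Figure D3:**
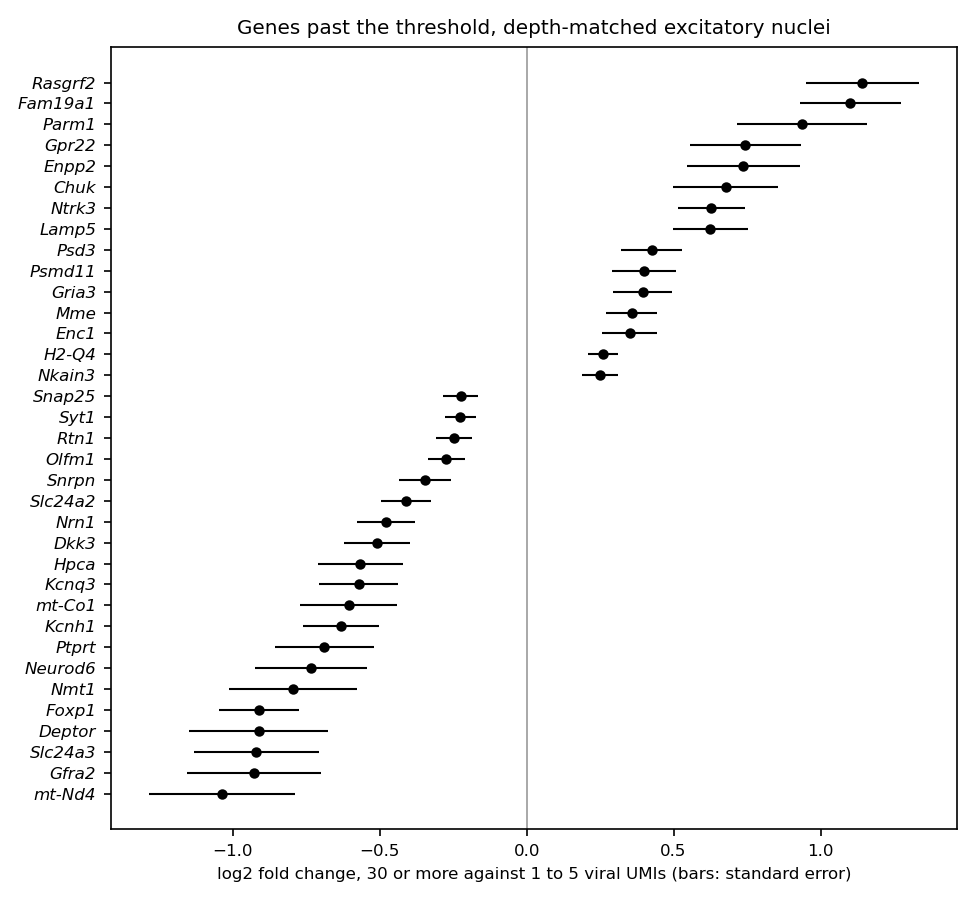
Log2 fold change (points) and its standard error (bars) of the 35 genes past an adjusted p of 0.05 between depth-matched excitatory nuclei with 30 or more and with 1 to 5 viral UMIs. The values run from -1.04 for mt-Nd4 to 1.14 for Rasgrf2, with 15 genes higher and 20 lower.

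Fewer genes passed when the paired nuclei also shared a layer label, defined below, with fewer pairs. With 609 such pairs and 1974 genes tested, 1 gene was higher and 3 were lower. Fam19a1 stayed at 1.04 (adjusted p = 0.00116), Foxp1 at -0.93 (adjusted p = 8.9e-05), Gfra2 at -1.07 (adjusted p = 0.0317) and Slc24a2 at -0.41 (adjusted p = 0.0128, edgeR). Of the calls that were lost, several kept their size, among them Ptprt at -0.74 (adjusted p = 0.0846), Hpca at -0.59 (adjusted p = 0.108), Nrn1 at -0.45 (adjusted p = 0.0525), Psmd11 at 0.41 (adjusted p = 0.0974), Mme at 0.34 and Snrpn at -0.34. Others were smaller, with Rasgrf2 at 0.72 (adjusted p = 0.119) and Lamp5 at 0.32 (adjusted p = 0.421), and so were genes that are not among the layer markers, with Ntrk3 at 0.40 (adjusted p = 0.218), Chuk at 0.40 (adjusted p = 0.595) and Kcnq3 at -0.32 (adjusted p = 0.488). Since Rasgrf2, Lamp5 and the other layer markers define the labels, matching on the label also draws their levels together.

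In the deeper comparison the lists of cellular responses to virus and injury are best read against the share called over all genes, 0.512% higher and 0.683% lower, at which lists this short would hold few or no calls. No gene passed among 11 tested immediate early genes, 9 of the unfolded protein response, 6 heat shock genes, 5 p53 targets, 3 axon injury genes, 2 of DNA damage repair, 12 of synaptic adhesion and scaffold, 7 nuclear long non-coding RNAs or 54 ribosomal protein genes. The ribosomal list had a median of -0.10, the immediate early list of 0.21, with 9 of 11 positive, and the list of AAV entry and trafficking, with 3 tested, of -0.02. The median of all 2930 genes was 0.00966. In the interferon list Irgm1 alone was deep enough to test and did not pass (-0.07), and the list's 27 genes summed to 5.01 to 8.33 UMIs per 10000 (median 6.07) against 5.00 to 13.2 (median 6.10). H2-Q4 was the only 1 of 3 tested MHC class I genes to pass.

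Layer markers below the filter on low counts moved with the viral class as well. Ctgf, a secreted matrix protein that marks layer 6b, had 250 UMIs in the high nuclei paired with nuclei of 1 to 5 viral UMIs and 25 in their partners. It was higher in 10 of 10 libraries, with a level of 0.622 to 4.63 UMIs per 10000 (median 2.41) against 0 to 0.606 (median 0.220), so the groups did not overlap. The log2 fold change without the filter was 3.25 (SE 0.28, adjusted p = 4.1e-27, edgeR). The UMIs lay in 54 of 785 high nuclei and 17 of 785 partners. Against nuclei with 0 viral UMIs, Ctgf had 117 UMIs against 21, but the log2 ratio was -0.10 in set 1 and 4.64 in set 2, higher in 6 libraries and lower in 3. Cplx3, a complexin used here as a layer 6b marker, had 32 UMIs in 26 high nuclei against 2 in 2 partners in the deeper comparison, higher in 10 of 10 libraries. It passed without the filter (adjusted p = 0.0048, edgeR) but was not among the genes that passed with a minimum count of 3. In the comparison with 0 it had 19 UMIs against 2. Genes outside the layer lists also passed as higher without the filter in the deeper comparison. Among them were 9330154J02Rik (75 UMIs against 16), Tmem163 (56 against 15), Qrfpr (42 against 5) and Fst (41 against 8). Summed over 9 genes, the L6 IT and L6b list ran from 1.76 to 7.40 UMIs per 10000 (median 4.15) against 0.841 to 2.11 (median 1.35), higher in 10 of 10 libraries. Ctgf, a member of the list that was chosen with its values known, gave most of that gap. With Ctgf left out the list had 202 UMIs against 127, a median of 1.89 against 1.09 UMIs per 10000, higher in 7 of 10 libraries.

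The layer 4 list moved the other way. Its 7 genes summed to 0.707 to 2.07 UMIs per 10000 (median 1.30) in high nuclei and 1.44 to 2.80 (median 2.15) in nuclei with 1 to 5 viral UMIs, lower in 10 of 10 libraries. Against nuclei with 0 the sums were 0.322 to 2.54 (median 1.37) and 0.648 to 3.92 (median 2.67), lower in 9 of 10. Rorb, the nuclear receptor that marks layer 4, had 73 UMIs against 118 in the deeper comparison, where it did not pass (log2 fold change -0.74, SE 0.26, unadjusted p = 0.00521, adjusted p = 0.163, edgeR), and 28 against 63 in the comparison with 0, where it was below the filter. The layer 5 and layer 6 CT lists overlapped between groups in the deeper comparison, with the L6 CT list at a median of 8.74 against 10.4. The L5 IT list was at 3.04 against 3.66, the L5 PT list at 3.53 against 3.25 and the L5 NP list at 0.968 against 0.486. Against nuclei with 0 the L6 CT list went the other way, at a median of 11.1 against 9.88, higher in 6 of 10 libraries. Its marker Ntsr1 had more UMIs in high nuclei in both, 36 against 12 in the deeper comparison and 15 against 3 in the comparison with 0.

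Levels over all 5729 excitatory nuclei, split into 4 classes of viral load, pooled over libraries and not matched on depth, show where along the load the named genes differ. There were 651 nuclei with 0 viral UMIs, 2869 with 1 to 9, 1301 with 10 to 29 and 908 with 30 or more, with median depths of 783, 943, 1151 and 1430 cellular UMIs. Foxp1 stood at 4.64, 4.72, 4.05 and 2.97 UMIs per 10000 in these classes, nearly level over the lower pair of classes and lower above them. Slc24a2 had a similar shape, at 11.9, 12.4, 11.6 and 9.61. Fam19a1 was higher in each class than in the one before, at 1.01, 1.61, 2.72 and 3.41, as were Rasgrf2, at 1.06, 1.38, 1.79 and 2.29, and Gria3, at 5.20, 6.41, 7.36 and 7.99. Rorb was lower in each class than in the one before, at 1.58, 1.19, 0.811 and 0.762. Ctgf was at 0.488, 0.311, 0.721 and 1.78, and so was lowest in nuclei with 1 to 9. Of the genes called against 0, Atp2b4 stood at 3.48, 4.53, 4.79 and 5.01, its largest step being the first, whereas Lin54 was at 11.5, 11.6, 11.4 and 12.4. The pooled values of Lin54 differ from its medians over libraries, which were 9.42, 10.2, 11.3 and 11.6.

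**Figure D4:**
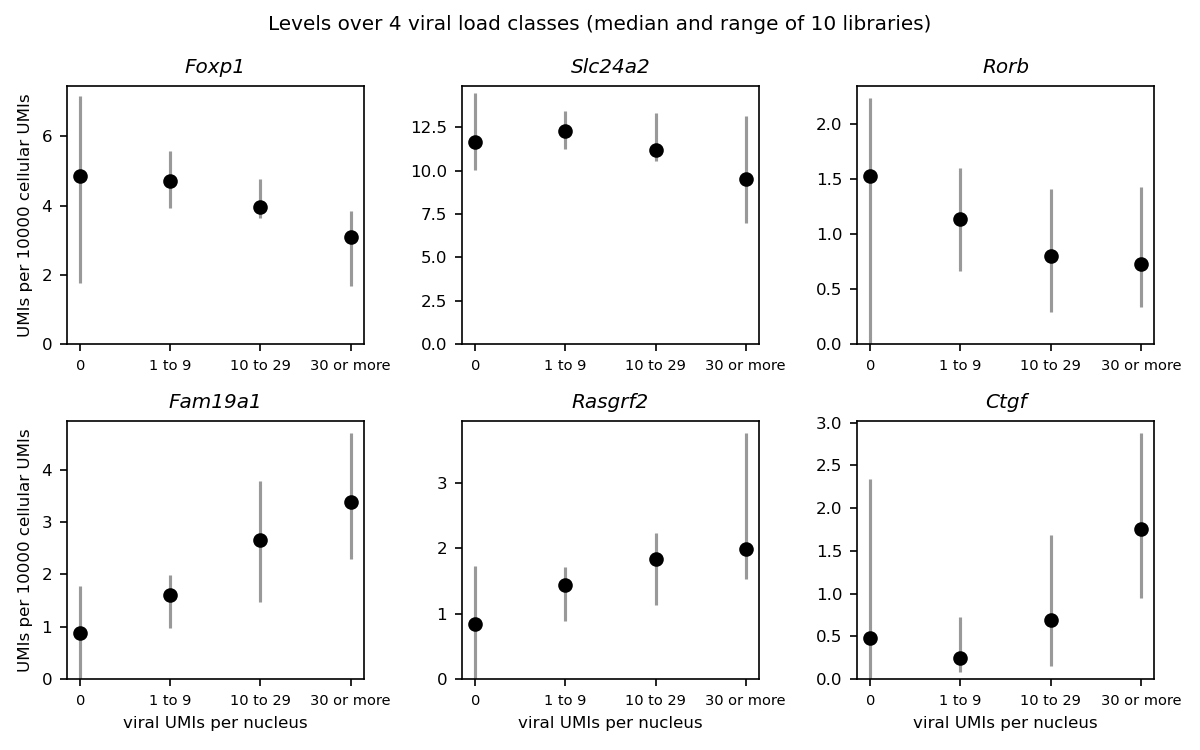
Levels (UMIs per 10000 cellular UMIs) of 6 genes in excitatory nuclei with 0, 1 to 9, 10 to 29 and 30 or more viral UMIs, as the median (points) and range (lines) of 10 libraries, not matched on depth. The pooled level of Foxp1 falls from 4.64 to 2.97 and that of Fam19a1 rises from 1.01 to 3.41 between the first and last class.

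A score of 0 to 3 over the 4 classes, fitted across the 4726 genes deep enough in these larger sums, called 55 genes higher (1.16%) and 94 lower (1.99%) with viral load. Nuclei with more viral UMIs are deeper, and after thinning each nucleus to 400 cellular UMIs, with 1091 genes tested, 16 were higher (1.47%) and 23 lower (2.11%). In the thinned fit Foxp1 changed by -0.23 per class (adjusted p = 0.0169) and Atp2b4 by 0.22 (adjusted p = 0.0127, edgeR), and Lin54 did not pass (0.10, adjusted p = 0.109).

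High nuclei were unevenly spread over the layer labels. Each excitatory nucleus was given the label of the marker list with the largest UMI sum relative to that list's mean over excitatory nuclei, a range of a score and not a cell type. Of nuclei labelled L6 IT and L6b, 24.4% were high (118 of 483, exact 95% interval 20.7% to 28.5%, libraries 7.89% to 37.0%), of L5 PT 21.8% (117 of 536) and of L5 NP 21.0% (81 of 386). The share was 18.3% in L2/3 (211 of 1156, interval 16.1% to 20.6%) and 18.0% in L5 IT (112 of 622), whose intervals overlap those of the labels above except that L2/3 lies just under L6 IT and L6b. It was 12.5% in L6 CT (129 of 1031, interval 10.6% to 14.7%) and 11.5% in L4 (83 of 719, interval 9.30% to 14.1%), which overlap each other and lie under the intervals of all others that carry a label. Nuclei with no label were the shallowest, with a median of 494.5 cellular UMIs, and 7.16% of them were high. With Ctgf, whose values were known when the lists were made, left out of the L6 IT and L6b list, an alternative added after seeing the data, 23.4% of the nuclei with that label were high (124 of 531, interval 19.8% to 27.2%), which overlaps L2/3 at 17.9% (interval 15.7% to 20.2%). The intervals are exact binomial ones and cover counting error only, and the labels also differ in depth, with medians from 1016 for L2/3 to 1290 for L5 IT.

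The labels were also counted in the pairs matched on depth. Among pairs with nuclei of 1 to 5 viral UMIs, L2/3 labels were found on 180 high nuclei and 123 partners (more in 7 libraries, fewer in 2) and L6 IT and L6b labels on 105 and 62 (more in 9, fewer in 1), or on 112 and 79 (more in 7, fewer in 3) with Ctgf left out of the list. L4 labels were found on 67 and 123 (fewer in 8 libraries, more in 1) and L6 CT labels on 121 and 160 (fewer in 9, more in 1). L5 IT labels, whose share of high nuclei before matching was close to that of L2/3, were on 90 and 111 (fewer in 7 libraries, more in 1), L5 PT labels on 96 and 78 (more in 5, fewer in 5) and L5 NP labels on 72 and 61 (more in 5, fewer in 2). Among pairs with 0 viral UMIs, L4 labels were on 27 high nuclei and 58 partners, fewer in 7 libraries and more in 1. L6 IT and L6b labels were on 46 and 30 there, L5 NP labels on 26 and 15, more in 7 libraries and fewer in 0, and L2/3 labels on 75 and 60, more in 4 libraries and fewer in 3.

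**Figure D5:**
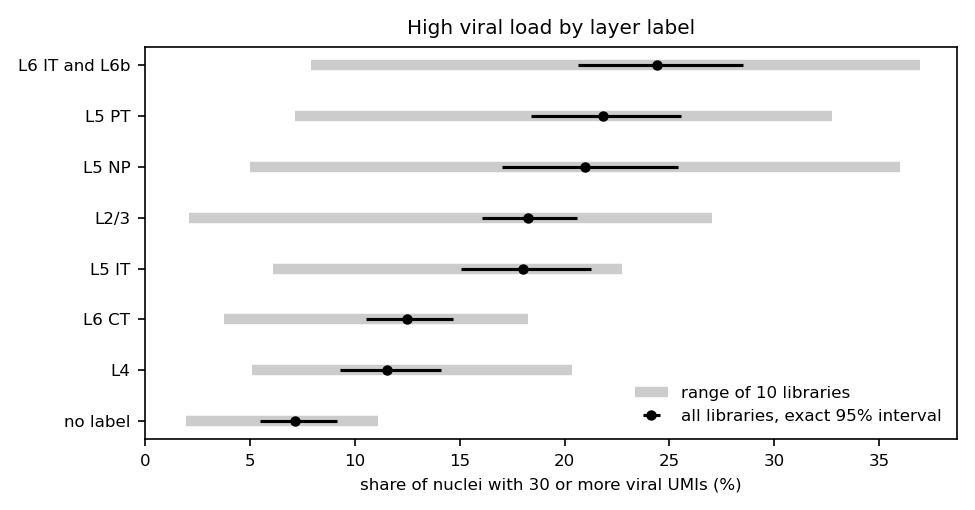
Share of excitatory nuclei with 30 or more viral UMIs (%) by layer label, over all libraries (points, with exact 95% intervals) and as the range of 10 libraries (grey bars). L6 IT and L6b is highest at 24.4% and L4 the lowest of the labels at 11.5%.

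Whether the same contrast looks alike in inhibitory nuclei was tested as an interaction over 745 genes, with 254 depth-matched pairs of nuclei that hold Gad1 or Gad2 and no Slc17a7. In those inhibitory nuclei 3 genes were higher (0.403%), Sst, Peg3 and Serpini1, and 4 lower (0.537%), mt-Co1, Slc8a2, Slc1a2 and Ptprd. For the interaction, 1 gene passed (0.134%), mt-Co1, on the side of a higher value in excitatory nuclei, and 0 (0.0%) on the other. Its log2 fold change was -0.30 in excitatory and -2.80 in inhibitory nuclei, a difference of 2.49 (SE 0.43, adjusted p = 0.000149, edgeR). Over all nuclei, not matched on depth, the difference was 1.27 and did not pass (adjusted p = 0.123). In UMIs, excitatory nuclei held 92 in the high and 113 in the other group, and inhibitory nuclei 34 and 267, of which 67 lay in 1 nucleus. All 13 mitochondrially encoded genes summed to 355 and 400 UMIs in excitatory nuclei. In inhibitory nuclei they summed to 197 and 939, of which 232 lay in 1 nucleus. Foxp1 was at -1.08 in excitatory and -0.52 in inhibitory nuclei, and the difference of -0.56 (SE 0.41, adjusted p = 0.88) did not pass. Lamp5 (difference 1.32, adjusted p = 0.118) and Atp2b4 (1.29, adjusted p = 0.244) did not pass either, so no difference between the classes was shown for these genes.

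Markers of other cell types were present and some moved with the group. The 11 vascular markers had 108 UMIs in high nuclei and 246 in their partners with 0 viral UMIs, a summed level of 1.18 to 3.98 per 10000 (median 2.78) against 2.92 to 17.5 (median 3.88), lower in 9 of 10 libraries, and 3 partners against 0 high nuclei held 10 or more vascular UMIs. Against nuclei with 1 to 5 viral UMIs they had 345 and 580 UMIs, with 0 and 5 nuclei at 10 or more. Of the 580 UMIs, 120 lay in 1 nucleus. The medians over libraries were 3.00 against 3.50 per 10000 there, with high nuclei above in 4 of 10. Cldn5, which defines endothelium, was at 0 UMIs in high nuclei of both comparisons. Without the filter on low counts, the genes lower in high nuclei included Dcn, with 3 UMIs against 45 in 5 nuclei. Against nuclei with 1 to 5 they included the pericyte gene Rgs5, with 4 UMIs in 4 nuclei against 82 in 12, of which 25 lay in 1 nucleus. The endothelial gene Flt1 had 5 UMIs in 5 nuclei against 48 in 6, of which 28 lay in 1 nucleus. Inhibitory markers had 197 UMIs in high nuclei and 137 in partners with 0, and Sst 54 against 9, of which 25 lay in 1 nucleus. Astrocyte markers, the most abundant of these, had 659 against 803 UMIs, a median of 17.0 against 19.8 per 10000. Against nuclei with 1 to 5 viral UMIs they had 1719 and 1883, with 3 or more in 202 high nuclei and 292 partners. At 10 or more astrocyte UMIs the counts went the other way, with 19 high nuclei and 11 partners, and 1 high nucleus held 123. Against nuclei with 0 they were 11 and 8. In the comparison with 0, oligodendrocyte markers 182 against 180, OPC markers 77 against 93, lymphocyte markers 42 against 41, and microglia and macrophage markers 76, of which 47 lay in 1 nucleus, against 60. The part of these cells in the gene differences was not tested. When nuclei with 2 or more UMIs of another cell type were left out, 96 pairs and 37 testable genes remained, and none passed.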

How the data were processed

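Nuclei were prepared by the authors from injected V1 and captured with inDrops. Per the study's methods, the inDrops pipeline mapped reads to GRCm38 with an added contig for each viral barcode. The methods also describe enrichment of viral transcripts by PCR. Reads mapped uniquely to a viral contig were tallied as UMIs by nucleus and barcode. The deposited values are UMI counts per nucleus and gene, without normalization, for 25870 cellular genes and 1164 viral barcodes. All 1164 counted toward the viral UMIs that chose the groups, although not all are assigned to a GRE. In high nuclei 69693 of 70710 viral UMIs came from assigned barcodes. A deposited column named Vector, never above the sum of the viral barcodes, counts toward the limit of 200 UMIs but toward no other value here. Without it, 439 kept nuclei, 8 of them high, would be at or below 200. The deposited table of GREs served only to assign barcodes and positions, and its columns of the authors' comparisons were not used. ATAC-Seq files were not analysed here.

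High nuclei were paired 1:1 within a library on log2 cellular UMIs (caliper 0.15), and counts were summed by library and group. Sums were tested with edgeR 4.0.16 (R 4.3.3; TMM, filterByExpr with a minimum count of 10, quasi-likelihood test, library as block, Benjamini-Hochberg over all genes tested). In these pairs a library held 15 to 61 pairs. Slc17a7, Gad1 and Gad2 stayed in library sizes but were not tested. Per-library measures used exact two-sided sign-flip permutation tests over 10 libraries (smallest p 0.00195) in python 3.11.15 with scipy 1.17.1. Doublets were not called; 1176 kept nuclei with UMIs of both Slc17a7 and Gad1 or Gad2 were outside both classes. On simulated data with the real means of the 644 genes, all 200 genes changed by a log2 of 1 were recovered, with 8 false calls. The simulated spread between sums was set below that of the real fit, whose biological coefficient of variation was 0.167. Smaller changes were not simulated, so the recovery does not give the power of the real pairs. Nuclei, lists and tests were chosen with earlier results of these data known. Genes were named by rule: up to 15 per direction with an adjusted p under 0.05 and the same sign in both sets and at least 8 of 10 libraries, list members under 0.05, and, where fewer than 5 passed in a direction, the 5 smallest p. Olfm1 in the main comparison follows that rule. Rtn1, Ctgf, Cplx3, Rorb, Ntsr1, Dcn, Rgs5, Flt1, Cldn5 and Sst, and the inhibitory calls, are outside it and were picked with their values in view. So were 9330154J02Rik, Tmem163, Qrfpr, Fst and Kit. Some genes of the lists were not analysed here. Gene positions are those of GRCm38.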

Additional observations from a re-analysis of the deposited data

Results flagged for a closer look

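Of 32 groups of 10 library values examined, 9 had a lowest or highest library far from the rest by Dixon's criterion, where chance gives about 1 in 20. Library 5 of set 2 was one of these for the share of high nuclei (4.37%), their median viral UMIs (37), the share of nuclei with 0 (25.8%) and the mean cellular UMIs of high nuclei (2484). In further groups 1 library, not the same one throughout, was far from the others. These were genes per nucleus of the matched high nuclei (1159) and of their partners (1188), and the mitochondrial share of nuclei with 0 (0.382%). The last were levels of Gria3, lowest in high nuclei at 0.797 UMIs per 10000 (library 3 of set 1). In nuclei with 0 its highest level was 8.55 (library 1 of set 2). The change of mt-Co1 differed between excitatory and inhibitory nuclei by 2.49 on the log2 scale, by the interaction test. Over 13 alternatives this difference lay between 1.27 and 2.93, the lowest without depth matching, where it did not pass (adjusted p = 0.123, edgeR).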

How the results depend on the processing

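For 30 or more against 0 viral UMIs (2 genes higher, 1 lower), the no replicate block fit, which drops the pairing of the 2 sums of a library, gave 0 higher and 1 lower, and DESeq2 1.42.0 gave 0 higher. Without the filter on low counts 3 genes were higher (Ctgf, Kit and 9330154J02Rik) and 6 lower of 17133. With a minimum count of 3, added after seeing the data, 1 was higher (Ctgf) and 2 lower of 2995. Atp2b4 and Lin54 passed in neither. All nuclei without depth matching gave 10 and 30. Nuclei thinned to 400 UMIs gave 2 higher and 0 lower, the higher ones including Gria3 but neither Atp2b4 nor Lin54. Matching within layer labels, a start at 20 viral UMIs, Slc17a7 of 2 or more and removal of nuclei with other cells' UMIs gave 0 and 0 each, with 357, 865, 72 and 37 genes tested. A start at 60 gave 2 higher and 0 lower, set 1 alone 2 and 0, and set 2 alone 1 and 0. Foxp1 was tested in 23 of 28 alternatives and not in the pairs matched within layer labels. A count of 0 lower thus need not mean that Foxp1 was tested and lost its call. The ordered score gave 55 and 94, thinned (added) 16 and 23, and the reference of 1 to 5 viral UMIs 15 and 20. Leaving out each library in turn gave 0 to 6 higher and 1 to 2 lower: 6 higher without library 3 of set 2, 0 without library 4 of set 1 or libraries 4 or 5 of set 2, 1 without library 1 of set 1 or libraries 1 or 2 of set 2, and 2 lower without library 3 of set 1. Olfm1 turned to 0.0199 with Slc17a7 of 2 or more.

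For 30 or more against 1 to 5, whose alternatives were added after seeing the data, matching within layer labels gave 1 and 3, no replicate block 13 lower (10 higher), a minimum count of 3 gave 8 higher, DESeq2 8 and 12, set 1 alone 14 and 14, set 2 alone 2 and 1, and leaving out a library 6 to 18 higher and 10 to 23 lower, with the fewest without library 5 of set 1 (6 and 10) and 7 and 11 without library 2 or library 3 of set 2. The interaction called 3 genes without the filter and 3 without matching, 4 with a minimum count of 3, and 1 to 2 with a library left out, 2 without library 2 of set 1 and libraries 2 or 5 of set 2.

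Genes per nucleus differed by 476.9 without matching and by 6.64 with a start at 20 (exact permutation p = 0.00195 and 0.0195), and by 7.40 to 13.7 with a library left out, 13.7 without library 5 of set 2 (exact p = 0.00391). The mitochondrial difference was -0.0856 percentage points without matching, which passed (exact permutation p = 0.00195), 0.00807 in set 2 alone, and -0.0487 to -0.0119 with a library left out. The cause of these moves was not tested. Of 847 values of named genes under alternatives, 1 turned sign, 256 lost and 21 gained the threshold. The small sums per library limit what could be tested: 644 of 17133 detected genes against 0.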
